A study of Mus musculus with 10 samples.

Results

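The 4 Hox clusters of the mouse hold 39 homeobox genes, and their chromatin is described here in embryonic stem cells, for a wild-type (WT) and a BAF250a knockout (KO) state. The clusters were taken as 4 windows of the mouse build mm9: HoxA at chr6:52090000-52235000, HoxB at chr11:96100000-96275000, HoxC at chr15:102750000-102910000 and HoxD at chr2:74500000-74620000. Every island, that is every called interval of enrichment, that overlapped a window was a member. The windows held 137 of the 84243 islands in the 4 lists: 30 of 28365 for H3K4me3 in WT, 68 of 40978 for H3K4me3 in KO, 16 of 8067 for H3K27me3 in WT and 23 of 6833 for H3K27me3 in KO.

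BAF250a, encoded by Arid1a, is a subunit of the BAF (SWI/SNF) complex, which moves and evicts nucleosomes. WT and KO cells share the strain background 129/C57BL/6 and were kept on mouse embryonic fibroblast feeders in serum with LIF. The KO cells, labelled BAF250a Knockout, received 1 µM 4-OH Tamoxifen and the WT cells ethanol, each for 36 hours from 4 hours after passage, so that the genotype and the drug cannot be told apart. The labels name no Cre driver and no clone, and do not say whether feeder cells were removed; their part in the results was not tested. The title of the KO H3K27me3 library reads H2K27me3, but its antibody label is H3K27me3.

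Each mark was profiled in a single library for WT and 1 for KO. No difference below could therefore be set against a replicate spread, and no p-value between genotypes was computed. All intervals in brackets are 95% intervals for read counting error only, and do not cover the choice of where islands start and end. Islands held 9565481 reads of H3K4me3 in WT and 13512350 in KO, and 1140878 reads of H3K27me3 in WT and 839422 in KO. Library totals are not stated in the lists. The KO H3K4me3 list was longer as a whole, with 1.46 times the called length of the WT list, and this general difference stands beside every H3K4me3 result below.

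Hox genes encode transcription factors with a homeodomain that give cells their identity along the body axis. Within a cluster they lie in the order in which they are used: genes of paralogue group 1 act early and toward the head, those of group 13 late and toward the tail and in the digits. In embryonic stem cells the clusters are silent and are a textbook case of Polycomb chromatin, with H3K27me3 laid down by Polycomb repressive complex 2 across the whole cluster. H3K4me3, laid down by Trithorax-related enzymes at CpG-rich promoters, lies within it, a state called bivalent.

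In the RefSeq gene table the 39 genes divide into 11 in HoxA, 10 in HoxB, 9 in HoxC and 9 in HoxD. The group 13 gene stands at the high-coordinate end of HoxA and at the low-coordinate end of the other 3 clusters, and positions below are given as kb from the window end on the group 13 side. That table is of another build than the islands, so only the order of the genes was taken from it. No island was assigned to a single gene, and whether the HoxB window reaches Hoxb13 was not checked.

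CpG-rich promoters are the places where H3K4me3 and Polycomb are both known to gather, so the bases before the gene starts are shown as sequence. The RefSeq promoter table (build GRCm38.p6) held 24 promoters of 22 of the genes. Over the 250 bases before the start, these had a median of 12.5 CpG dinucleotides and a median observed over expected CpG of 0.72, against 6 and 0.37 over all 32851 promoters of the table. The spread among the Hox promoters was wide, from 0.16 to 1.11, and 13 of the 24 (54.2%) lay above 0.6, against 34.0% of all promoters. The genes of HoxA were read from the minus strand in 10 of 10 entries, and those of HoxB, HoxC and HoxD from the plus strand in 14 of 14. Entries for Hoxa4, Hoxb2, Hoxb3, Hoxb5, Hoxb6, Hoxb7, Hoxb9, Hoxb13, Hoxc5, Hoxc6, Hoxc8, Hoxc9, Hoxc10, Hoxc11, Hoxc12 and Hoxc13 were not used here.

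The promoter with the highest observed over expected CpG of each cluster is printed, followed by the lowest of all; capitals mark each CpG, the letters CG. Positions are those of GRCm38.p6 and cannot be set against the mm9 positions of the islands. Hoxa5, which acts in the lung and the neck skeleton, was read from chr6:52204588-52204837 on the minus strand. Hoxb8 came from chr11:96281655-96281904, Hoxc4 from chr15:103034145-103034394, and Hoxd13, a gene of digit and genital development, from chr2:74667975-74668224, all on the plus strand. The lowest was 1 of the 2 promoters of Hoxd11, a gene of the forearm skeleton, at chr2:74679308-74679557 on the plus strand.
Hoxa5: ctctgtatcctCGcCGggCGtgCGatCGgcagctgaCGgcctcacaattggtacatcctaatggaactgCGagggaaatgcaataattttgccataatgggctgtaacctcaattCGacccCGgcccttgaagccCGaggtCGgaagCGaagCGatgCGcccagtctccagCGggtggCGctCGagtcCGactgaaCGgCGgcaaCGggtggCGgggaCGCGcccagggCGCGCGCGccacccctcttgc
Hoxb8: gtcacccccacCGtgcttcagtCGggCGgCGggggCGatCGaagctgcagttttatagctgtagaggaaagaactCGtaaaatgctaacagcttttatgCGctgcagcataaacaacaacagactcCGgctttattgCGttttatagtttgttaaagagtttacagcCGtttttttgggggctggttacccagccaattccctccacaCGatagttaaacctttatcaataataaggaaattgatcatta
Hoxc4: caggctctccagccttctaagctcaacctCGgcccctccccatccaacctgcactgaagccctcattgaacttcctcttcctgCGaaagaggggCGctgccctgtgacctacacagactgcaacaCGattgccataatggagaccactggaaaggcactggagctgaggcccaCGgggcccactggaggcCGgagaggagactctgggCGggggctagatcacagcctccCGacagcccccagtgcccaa
Hoxd13: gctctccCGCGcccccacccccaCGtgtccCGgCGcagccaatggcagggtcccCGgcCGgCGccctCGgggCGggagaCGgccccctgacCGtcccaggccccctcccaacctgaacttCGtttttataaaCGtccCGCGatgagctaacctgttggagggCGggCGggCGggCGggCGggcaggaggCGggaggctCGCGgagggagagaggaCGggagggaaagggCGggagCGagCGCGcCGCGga
Hoxd11: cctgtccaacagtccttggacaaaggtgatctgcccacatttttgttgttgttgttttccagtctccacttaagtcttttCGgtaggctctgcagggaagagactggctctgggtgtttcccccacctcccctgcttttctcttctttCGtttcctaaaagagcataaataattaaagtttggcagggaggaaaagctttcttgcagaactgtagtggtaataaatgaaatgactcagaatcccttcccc
These hold 28, 12, 8, 31 and 2 CpG dinucleotides, with observed over expected values of 1.11, 0.97, 0.34, 0.90 and 0.16. Only 1 promoter of HoxC and 3 of HoxB were in the table, so the clusters cannot be ranked by it.

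In WT cells each Hox cluster was a near continuous H3K27me3 domain. Islands covered 94.8% of the HoxA window, 92.7% of HoxB, 98.9% of HoxC and 94.7% of HoxD. In HoxA a single island ran from 6.2 to 143.6 kb, chr6:52091401-52228800, with 9441 reads, 1848 input reads and a fold over input of 3.05 (2.90 to 3.20). HoxC was almost 1 island too, chr15:102752601-102908600, 156 kb long with 9754 reads and 3.10-fold (2.95 to 3.26). Among all 10281 H3K27me3 regions made by merging overlapping WT and KO islands, the main regions of HoxC, HoxB and HoxA were the 3 widest, at 156, 145.6 and 139 kb.

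The other islands of HoxC reached past the window on either side. One of 19.2 kb on the group 13 side, chr15:102732401-102751600, had the higher fold, 4.32 (3.69 to 5.07). One of 32.2 kb at the other end, chr15:102909401-102941600, had 1071 reads and 2.11-fold (1.86 to 2.40). Both lie almost wholly outside the window, with 64.9 and 33.3 reads per kb, beside 62.5 in the long island between them.

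HoxB held 1 long and 4 short WT islands. The long one, chr11:96110601-96248600, had 8790 reads over 138 kb and 2.87-fold (2.73 to 3.02). At the group 13 side lay 4 kb with 103 reads (1.62-fold, 1.11 to 2.34) and 6.6 kb with 146 reads (2.07-fold, 1.47 to 2.92). At the group 1 end lay 2.2 kb with 69 reads (2.06-fold, 1.25 to 3.38) and 15.2 kb, chr11:96259001-96274200, with 378 reads (1.48-fold, 1.23 to 1.79). The 4 short islands were thinner than the long one, at 22.1 to 31.4 reads per kb against 63.7.

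HoxD was divided into 7 WT islands. The longest 2, chr2:74506801-74542800 and chr2:74543601-74596800, had 2497 and 3228 reads and nearly equal folds, 3.04 (2.76 to 3.35) and 3.07 (2.82 to 3.34). An island across the group 13 edge, chr2:74494201-74506000, had 772 reads and 2.56-fold (2.17 to 3.01). Toward the group 1 end 4 islands of 3.4 to 6.6 kb had 176, 263, 136 and 87 reads and folds of 3.28 (2.25 to 4.78), 3.92 (2.81 to 5.47), 6.76 (3.74 to 12.2) and 2.16 (1.38 to 3.396). The highest of these rests on 12 input reads, and its interval is wide.

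**Figure D1:**
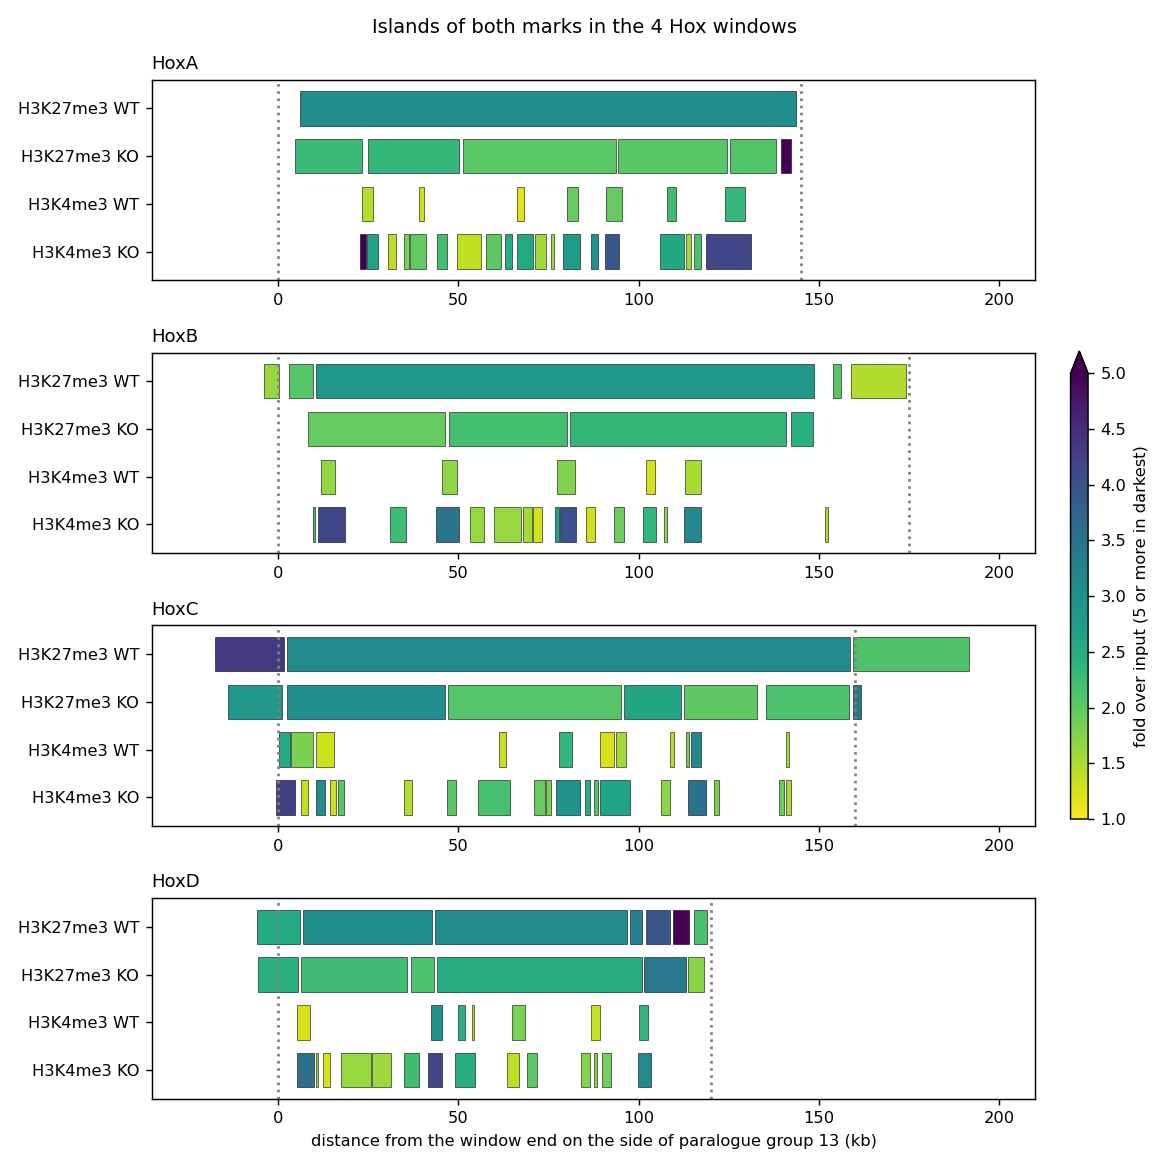
Islands of H3K27me3 and H3K4me3 in WT and KO along the 4 Hox windows. The horizontal axis is the distance in kb from the window end on the side of paralogue group 13, boxes are islands, their colour is the fold over input, and dotted lines are the window ends. H3K27me3 fills most of each window in both genotypes, with the lighter colours of a lower fold in most of the long KO boxes, and the H3K4me3 rows hold 30 boxes in WT and 68 in KO.

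In KO cells H3K27me3 still filled the clusters, at a lower level. The called share of the window was 90.9% in HoxA, 78.3% in HoxB, 95.4% in HoxC and 94.8% in HoxD. In HoxA the reads went from 9441 to 3980, in HoxB from 9486 to 3942, in HoxC from 12072 to 5192 and in HoxD from 7159 to 3573. The number of reads was lower in KO in each cluster, but the whole KO list also held fewer reads than the WT list.

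To take that general difference out, the KO over WT ratio was divided by its value over all regions with islands in both lists, which gives scaled reads. The scaled ratio was 0.576 (0.555 to 0.598) in HoxA, 0.568 (0.547 to 0.589) in HoxB, 0.588 (0.569 to 0.607) in HoxC and 0.682 (0.655 to 0.710) in HoxD. The order of the clusters changed with the measure: with only the islands whose midpoint lay in the window, a setting added after seeing the data, the log2 ratio was −0.63 in HoxC and −0.71 in HoxD. The HoxC sum holds 1071 WT reads of an island that lies almost wholly past the window and 56 KO reads there. Of the 9 Hox regions with islands in both lists, 6 were lower in KO by 1.5 times or more, against 16.2% of 3379 such regions over the genome. On the log2 scale the median was −0.63 over the Hox regions and 0.08 over all regions.

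Enrichment over input was lower in KO as well. The fold was 3.05 (2.90 to 3.20) in WT and 2.16 (2.04 to 2.28) in KO for HoxA, and 2.72 (2.60 to 2.86) and 2.20 (2.08 to 2.33) for HoxB. For HoxC it was 3.07 (2.93 to 3.20) and 2.46 (2.34 to 2.59), and for HoxD 3.04 (2.87 to 3.22) and 2.43 (2.28 to 2.58). The log2 ratio of folds was −0.50 (−0.61 to −0.39) in HoxA, −0.31 (−0.41 to −0.20) in HoxB, −0.32 (−0.42 to −0.22) in HoxC and −0.32 (−0.44 to −0.20) in HoxD. Counting intervals of WT and KO did not overlap in any cluster. All 9 Hox regions with islands in both lists were lower in KO by fold, against 64.1% of 3368 regions over the genome, whose median log2 ratio was −0.18.

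Input reads per kb in the called islands were close in both genotypes here, with an interval that left out 1 in HoxC alone. Their KO over WT ratio was 1.01 (0.950 to 1.08) in HoxA, 1.02 (0.953 to 1.08) in HoxB, 1.08 (1.02 to 1.15) in HoxC and 1.02 (0.946 to 1.098) in HoxD, whereas over all shared H3K27me3 regions it was 1.33. ChIP reads per kb, not scaled, went from 68.7 to 30.2 in HoxA, from 57.1 to 28.8 in HoxB, from 58.2 to 30.9 in HoxC and from 59.96 to 29.9 in HoxD. The scaled ratio per kb was 0.619, 0.709, 0.747 and 0.702, so the level was lower per kb of called length as well.

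**Figure D2:**
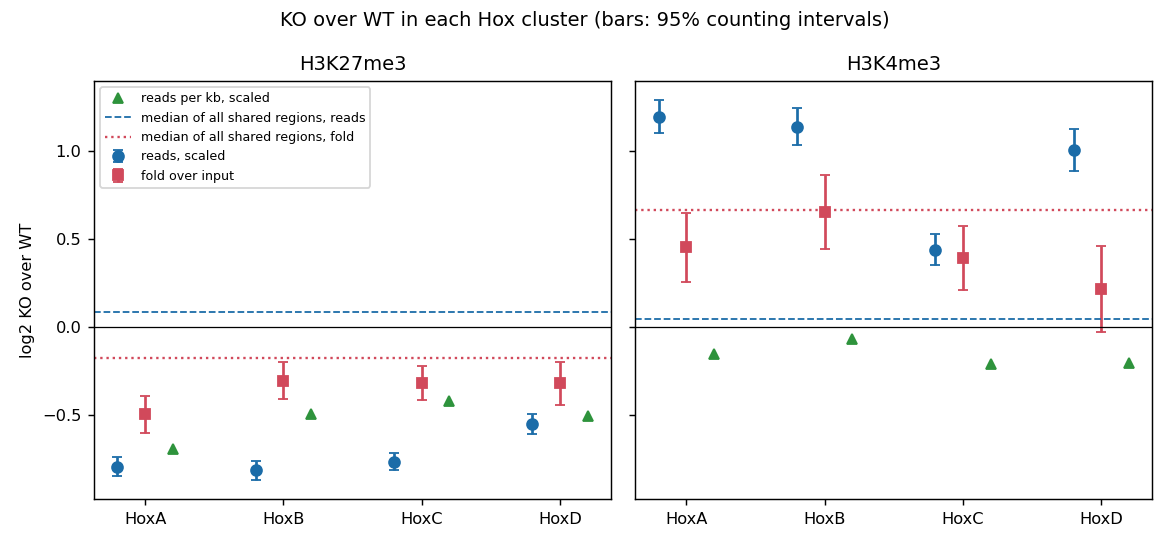
KO over WT on the log2 scale for H3K27me3 and H3K4me3 in each cluster. Circles are scaled reads and squares fold over input, both with 95% counting intervals, triangles are scaled reads per kb, and the dashed and dotted lines are the genome medians of reads and of fold. All 3 H3K27me3 measures lie below 0 in each cluster; for H3K4me3 the reads and folds lie above 0 while the reads per kb lie below it.

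The domains were called in different pieces in KO. HoxA, 1 island in WT, was 6 islands in KO. HoxC went from 3 islands to 7, while HoxB went from 5 to 4 and HoxD from 7 to 6. A KO island overlapped 13 of 16 in WT, and the remaining 3 lay at the edges of HoxB, 2.2 to 15.2 kb long. Over all WT H3K27me3 islands 50.4% had no KO island. All 23 KO islands overlapped a WT island, against 41.5% of all KO H3K27me3 islands that had none. As WT islands covered 95.2% of the windows, this overlap follows largely from that coverage.

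Within the KO domains the level was even along HoxA and uneven along HoxC. The KO island of HoxA with most reads, chr6:52141401-52183800, had 1342 reads and 2.02-fold (1.84 to 2.22). Its neighbours toward the group 13 end had 2.35-fold (2.07 to 2.66) and 2.29-fold (1.963 to 2.67), and those toward group 1 had 2.04-fold (1.82 to 2.30) and 2.09-fold (1.73 to 2.53). These 5 intervals overlap. A further piece of 2.8 kb with 64 reads had 7.79-fold (3.73 to 16.2) on 8 input reads.

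Along HoxC the fold differed between the long KO pieces. The first island wholly inside the window, chr15:102752601-102796400, held 1678 reads at 3.05-fold (2.77 to 3.37) and 38.3 reads per kb, not scaled. The WT island that spans it had 3.10-fold and 62.5 reads per kb over its whole 156 kb. The WT level within this piece alone is not known. The next KO piece, from 47.2 to 95 kb, had 1400 reads at 2.07-fold (1.89 to 2.28). Further pieces had 2.65-fold (2.25 to 3.12), 1.99-fold (1.70 to 2.33) and 2.13-fold (1.83 to 2.47). The interval of the first lay above those of the pieces at 2.07, 1.99 and 2.13-fold and overlapped that of the piece at 2.65-fold.

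In HoxB the KO fold was 1.97 (1.76 to 2.19) on the group 13 side, 2.19 (1.97 to 2.44) in the next piece and 2.35 (2.16 to 2.57) in the longest, chr11:96181001-96240800, with 1723 reads. In HoxD the longest KO piece, chr2:74544001-74600800, had 1797 reads at 2.51-fold (2.30 to 2.74), and the piece on its group 1 side, with 269 reads, 3.401-fold (2.64 to 4.38). The last piece of HoxD, 4.2 kb with 81 reads, had 1.71-fold (1.19 to 2.46). In HoxB the first and the longest piece had overlapping intervals, and in HoxD the fold followed no order along the cluster.

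The breaks between KO islands were short and often lay under H3K4me3. There were 19 breaks of 0.8 to 2.4 kb in KO and 12 of 0.8 to 5.4 kb in WT; the shortest is set by the gap of 600 bp that the caller bridges. Of the 23 KO H3K27me3 islands 19 held an H3K4me3 island, against 41.9% of all KO H3K27me3 islands. Of the 16 in WT 10 did, against 37.4%. The Hox islands were longer, with medians of 20.2 kb in KO and 13.5 kb in WT, against 4 and 3 kb over the lists. A longer island more easily holds an H3K4me3 island, so these shares cannot be told apart from length. Of the 19 KO breaks, 13 touched a KO H3K4me3 island and 11 lay wholly inside one. H3K4me3 islands of KO held 57.3% of the break length and 41.7% of the whole span. With the WT H3K4me3 islands, which are fewer, these shares were 46.6% and 15.9%. Of the 12 WT breaks, 4 touched a WT H3K4me3 island. WT H3K4me3 islands held 18.75% of the WT break length and 14.8% of the WT span, so in WT the shares were close.

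Breaks overlapped between the genotypes at 5 places, 2 in HoxC and 3 in HoxD. The WT break at chr15:102751601-102752600 in HoxC, and those at chr2:74506001-74506800, chr2:74542801-74543600 and chr2:74601001-74602000 in HoxD, lay wholly inside an H3K4me3 island in WT, and their KO counterparts wholly inside one in KO. The other shared break, at the group 4 end of HoxC, lay in none. The widest KO breaks of each cluster were 1.8 kb at chr6:52210001-52211800, 1.4 kb at chr11:96240801-96242200, 2.4 kb at chr15:102882801-102885200 and 1 kb at chr2:74535801-74536800. Of these the HoxA break was 77.8% under KO H3K4me3, the HoxD break 100%, and the other 2 had none.

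H3K4me3 in the WT clusters was sparse and weak. There were 7 islands in HoxA, 5 in HoxB, 11 in HoxC and 7 in HoxD, covering 15.6%, 11.4%, 19.8% and 14.7% of the windows. Their median fold was 1.67, against 2.98 over all WT H3K4me3 islands, and 1 of the 30 lay above that genome median. Each of the 30 overlapped a WT H3K27me3 island, against 10.8% of all WT H3K4me3 islands. WT H3K27me3 covered 95.2% of the windows, so almost any island placed there overlaps it.

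The WT island with most reads in each cluster stood at a different place along the gene order. In HoxA it was chr6:52105401-52111200 near the group 1 end, 123.8 to 129.6 kb from the group 13 side, with 411 reads and 2.33-fold (1.87 to 2.91). In HoxB it was chr11:96177401-96182400, at 77.4 to 82.4 kb, with 294 reads and 1.76-fold (1.39 to 2.22). HoxC had it at chr15:102864601-102867400, 114.6 to 117.4 kb, with 272 reads and 3.12-fold (2.30 to 4.23), and HoxD at chr2:74542401-74545600, 42.4 to 45.6 kb, with 158 reads and 2.96-fold (2.00 to 4.37). The folds of these 4 islands overlap in their intervals except that HoxB lies below HoxC.

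KO cells had more H3K4me3 islands and a longer called length in every cluster, although the median island was 3 kb in WT and 2.8 kb in KO. Numbers went from 7 to 19 in HoxA, from 5 to 16 in HoxB, from 11 to 19 in HoxC and from 7 to 14 in HoxD. Called length in the window went from 22.6 to 70.4 kb in HoxA, from 20 to 56.4 kb in HoxB, from 31.6 to 60 kb in HoxC and from 17.6 to 49.8 kb in HoxD. Over the 4 clusters the called length was 2.58 times as long in KO, against 1.46 times over the whole lists.

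Reads in H3K4me3 islands went from 1210 to 3634 in HoxA, from 979 to 2826 in HoxB, from 1637 to 2910 in HoxC and from 782 to 2059 in HoxD. Scaled to all shared regions, the ratio was 2.28 (2.14 to 2.44), 2.20 (2.04 to 2.36), 1.35 (1.27 to 1.44) and 2.00 (1.84 to 2.18). These ratios divide sums over islands of unequal length in WT and KO, so they move with the called length, and the clusters are not ranked by them. Per kb of called length the scaled direction turned: unscaled reads per kb went from 53.5 to 51.6 in HoxA, from 49.0 to 50.1 in HoxB, from 51.8 to 48.0 in HoxC and from 44.4 to 41.3 in HoxD, or 0.897, 0.953, 0.863 and 0.866 after scaling.

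Fold over input was higher in KO, but not by more than elsewhere. It was 1.85 (1.64 to 2.08) in WT and 2.52 (2.36 to 2.70) in KO for HoxA, 1.61 (1.42 to 1.82) and 2.53 (2.34 to 2.73) for HoxB, 1.86 (1.68 to 2.05) and 2.43 (2.25 to 2.62) for HoxC, and 1.86 (1.61 to 2.15) and 2.16 (1.98 to 2.35) for HoxD. The log2 ratio was 0.45 (0.25 to 0.64), 0.65 (0.44 to 0.86), 0.39 (0.21 to 0.57) and 0.21 (−0.03 to 0.46), beside a median of 0.66 over all shared regions. The HoxD interval spanned 0. These sums include weak KO islands that had no WT counterpart.

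At the 25 Hox regions where H3K4me3 was called in both genotypes, the WT folds ran from 1.18 to 2.96 with a median of 1.68, and the KO folds from 1.40 to 4.199 with a median of 2.93. The fold was higher in KO in 23 of 25, against 91.5% of 23281 regions over the genome, and the median log2 ratio was 0.68 against 0.66. Scaled reads were higher in KO by 1.5 times or more in 6 of 25, against 16.1% of 23315 regions. By fold, the share and the median at these Hox regions were near those of the genome. Called length was longer in KO in 19 of the 25 and shorter in 4, with medians of 3.4 kb in WT and 4.8 kb in KO, and it was longer in 71.8% of all shared regions.

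**Figure D3:**
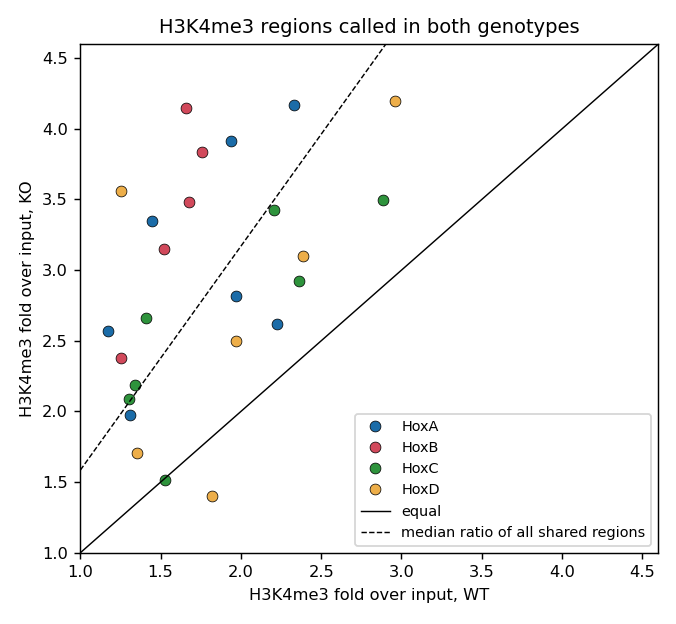
H3K4me3 fold over input in WT (horizontal) and KO (vertical) for the 25 Hox regions with islands in both genotypes, 1 point per region, coloured by cluster. The solid line marks equal folds and the dashed line the median ratio of all shared regions; 23 points lie above the solid line, and points lie on either side of the dashed one.

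Single regions showed the range. The largest log2 ratio was in HoxD: at chr2:74505201-74510000, next to the window's group 13 end, the fold went from 1.25 to 3.56 with 118 and 225 reads, a log2 ratio of 1.51. At chr11:96111001-96118600 in HoxB it went from 1.66 to 4.15 with 183 and 625 reads. The regions that were lower in KO were chr2:74563401-74568400 in HoxD, at 1.82 and 1.40-fold, and chr15:102890801-102892200 in HoxC, at 1.53 and 1.52-fold. The counting intervals of WT and KO overlap at both.

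The KO island with most reads was chr6:52103801-52116400 in HoxA, 12.6 kb long with 864 reads and 4.17-fold (3.51 to 4.95). It spans the strongest WT island of that cluster, toward the group 1 end. In HoxB it was chr11:96111001-96118600, now at the group 13 side, 11 to 18.6 kb along, with 625 reads and 4.15-fold (3.39 to 5.07). In HoxC it was chr15:102839401-102847600 with 440 reads and 2.66-fold (2.18 to 3.25), and in HoxD chr2:74517601-74525800 with 264 reads and 1.63-fold (1.32 to 2.03), the longest of that cluster at 8.2 kb and without a WT island. By most reads, the leading island stayed at the same place in HoxA alone. By highest fold it stayed in HoxD alone, at chr2:74541601-74545600, with 243 reads and 4.199-fold in KO. The HoxA island of highest KO fold, chr6:52210601-52212400, lay toward the group 13 side. It rests on 14 input reads, and its interval overlaps that of the HoxA island with most reads. Which island leads thus depends on the measure.

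Many of the KO islands had no WT island at the same place. Of the 68 KO H3K4me3 islands, 39 (57.4%) overlapped no WT island, against 40.4% of all KO islands and 18.9% of the 2780 KO islands that also carried H3K27me3. These 39 held 34.3% of the KO reads in the clusters and were 11 of 19 in HoxA, 10 of 16 in HoxB, 10 of 19 in HoxC and 8 of 14 in HoxD. With the KO list cut to the number of islands in the WT list, by most reads, 24 of 48 (50%) had no WT island, against 22.2% of that list. With no WT island within 1 kb there were 33 in all: 11, 10, 7 and 5.

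These KO-only islands were the weak ones. Their fold ran from 1.26 to 2.97 with a median of 1.81, against a median of 2.82 for the KO islands with a WT partner, and their median was 76 reads over 2.4 kb against 243 reads over 4.4 kb. Over the genome the same 2 kinds of KO island had medians of 2.36 and 5.06. The KO-only islands of the clusters were longer and held more reads than those of the genome, whose medians were 47 reads and 1.2 kb. Of the 39, 38 overlapped a KO H3K27me3 island. Of all 68, 67 did, against 6.78% of all KO H3K4me3 islands. KO H3K27me3 covered 89.2% of the windows, so most islands placed there would overlap it.

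The KO-only island with most reads was chr6:52178601-52185400 in HoxA (262 reads, 1.36-fold, 1.11 to 1.67), chr11:96159801-96167400 in HoxB (270 reads, 1.63-fold, 1.32 to 2.02), chr15:102821001-102824000 in HoxC (134 reads, 1.95-fold, 1.41 to 2.70) and chr2:74517601-74525800 in HoxD, already named. Each lower bound was above 1, but lists hold only places called enriched over input, so this is no separate support for them. In HoxA, HoxB and HoxD the KO-only islands with most reads were 6.8, 7.6 and 8.2 kb long. The only WT island without a KO partner was chr15:102858801-102859800 in HoxC, with 31 reads and 1.45-fold (0.746 to 2.83), 1 of 30 against 5.34% of all WT islands and 10.4% of those with H3K27me3. A KO island ends at the base before it.

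By position, H3K4me3 called in KO and not in WT lay mostly between the group 13 end and the middle of the windows. Each window was divided into 5 equal parts, with part 1 at the group 13 end. The parts divide the windows and not the spans of the genes. How far each window runs past its genes was not checked, so low coverage in an end part may describe bases beside the genes. Summed over the clusters, called length went from 24.2 to 43 kb in part 1, from 10.6 to 67.2 kb in part 2, from 28.4 to 69 kb in part 3, from 19.4 to 36.2 kb in part 4 and from 9.2 to 21.2 kb in part 5. Part 2 thus held little called H3K4me3 in WT, 8.83% of its length, and 56.0% in KO, a ratio of 6.34, while the ratios of the other parts were 1.78 to 2.43. The KO-only islands centred in part 2 were weak, with folds from 1.36 to 2.22, beside a median of 3.58 over all KO H3K4me3 islands. A place without a WT island is not a count of 0, so the ratio is one of called length and not of signal. Called length was longer in KO in 19 of 20 parts.

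Part 2 changed in the same direction in each cluster. Its covered share went from 5.52% to 61.4% in HoxA, from 11.4% to 59.4% in HoxB, from 5.63% to 42.5% in HoxC and from 13.3% to 62.5% in HoxD. In HoxB and HoxC part 5, on the side of the lowest paralogue groups, had 2.86% and 8.75% in KO, and in HoxD it went from 10% to 15%. In HoxA part 5 went from 20% to 47.6%, so HoxA was covered toward group 1 as well. The part that was shorter in KO was part 1 of HoxC, at 43.1% in WT and 38.8% in KO, the most covered part of any cluster in WT.

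**Figure D4:**
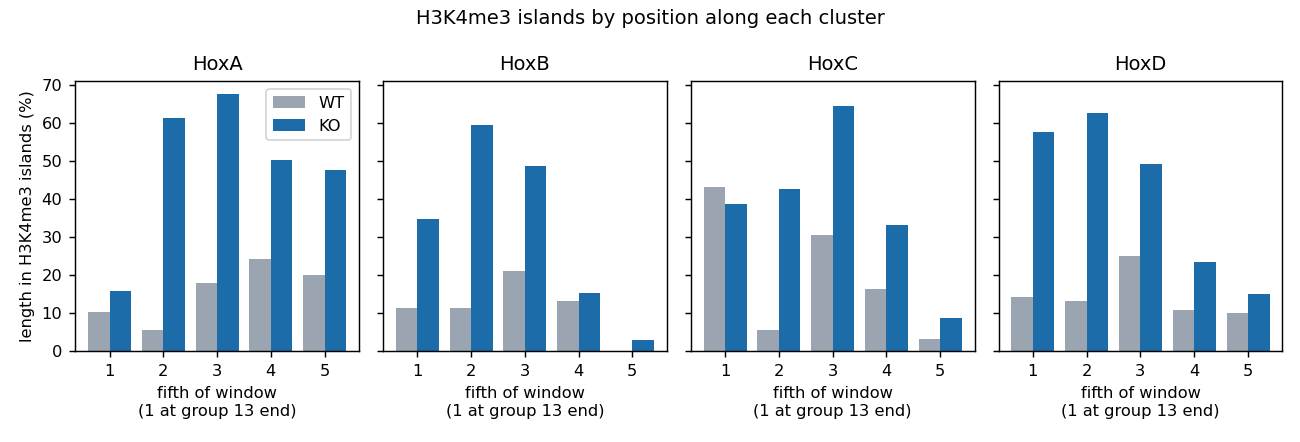
Share of each of 5 equal parts of the 4 windows inside H3K4me3 islands in WT (grey) and KO (blue), in percent, with part 1 at the paralogue group 13 end. The bars have no error, as there was 1 library each. Blue bars are higher than grey in 19 of 20 parts, and in part 2 the KO bars stand at 42.5 to 62.5%.

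Both marks together covered more of the clusters in KO. Bases inside an island of each mark went from 22.6 to 66.4 kb in HoxA, from 20 to 53.6 kb in HoxB, from 30.6 to 57.4 kb in HoxC and from 15 to 46.4 kb in HoxD, or from 14.7% to 37.3% of the 4 windows. Nearly all H3K4me3 length lay inside H3K27me3 in both genotypes, 96.1% in WT and 94.6% in KO. H3K27me3 islands covered 95.2% of the windows in WT and 89.2% in KO, so H3K4me3 called there falls inside them almost wherever it lies. Of the 156.2 kb with H3K4me3 in KO and not in WT, 154.6 kb was inside a WT H3K27me3 island and 152.6 kb inside a KO one. Conversely, 42.8 kb lost its H3K27me3 call in KO, of which 9.4 kb was under KO H3K4me3 and 26.2 kb lay in HoxB. Calls of the marks overlapped more in KO, where the called H3K4me3 length was greater. The signal cannot show whether both sit on the same nucleosomes or in the same cells.

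The clusters were set beside the other wide H3K27me3 regions, those of 20 kb or more with a mean fold of at least 2 and islands in both genotypes. There were 6 such regions that overlapped a Hox window and 128 that did not. One of the 6, chr15:102909401-102941600, lies almost wholly past the HoxC window, and its values describe flanking chromatin. Scaled H3K27me3 reads were lower in KO in all 6 and in 112 of 128, with median log2 ratios of −0.68 and −0.45 and a range of −1.79 to 0.81 outside. By fold over input, 6 of 6 and 105 of 128 were lower, with medians of −0.37 and −0.20. The 6 Hox regions stood at ranks 14 to 65 of 134 from the lowest scaled ratio, so a lower H3K27me3 level was shared by most wide regions.

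For H3K4me3 inside these regions the sets looked less alike. Distinct islands numbered 32 in WT and 69 in KO in the 6 Hox regions, or 30 and 67 without the flanking one, and 302 and 295 in the other 128. Called H3K4me3 was longer in KO in all 6, and in 65 of 128. By the gain in covered share, chr2:74506401-74543200 in HoxD (8.70% to 68.5%), the HoxA region (16.3% to 50.6%) and the HoxB region (13.7% to 38.0%) stood at ranks 1, 2 and 4 of 134, the other 2 within the windows at ranks 14 and 17, and the flanking one at rank 52. Input reads per kb, as KO over WT, had a median of 1.02 in the Hox regions and 1.101 in the others. The highest values were 1.11 and 2.92. Among the others, chr13:12955401-13062800 went from 14 H3K4me3 islands in WT to 0 in KO, and chr13:12865601-12952000 from 10 to 0. Their input ratios were 2.48 and 2.47. The totals of 302 and 295 include both, and how far input-rich segments bear on these totals was not tested. The values describe single libraries, and the difference between the sets was not tested.

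**Figure D5:**
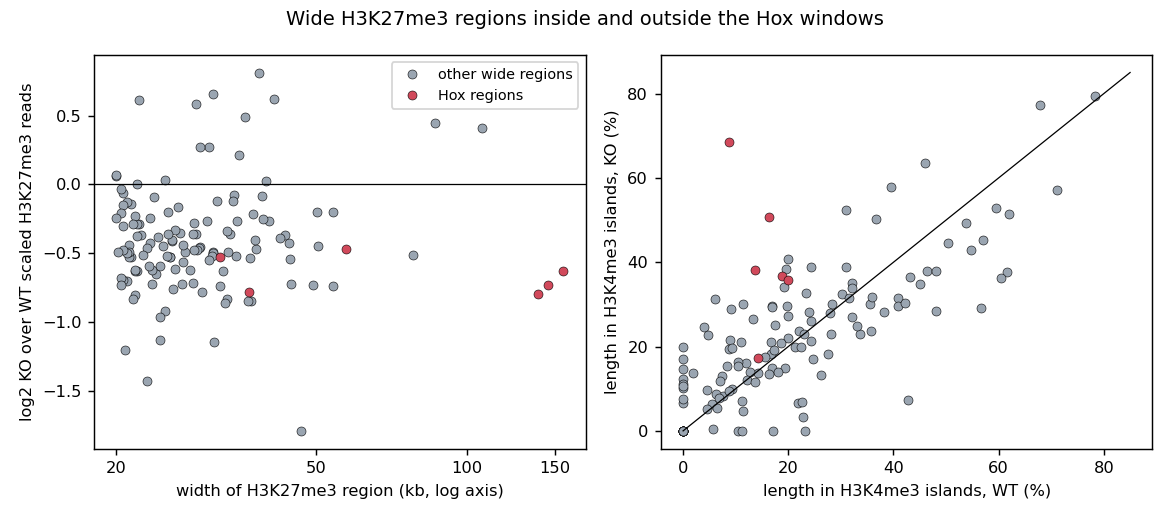
Wide H3K27me3 regions that overlap a Hox window (red, 6, of which 1 lies mostly past it) and others (grey, 128). The left panel plots width in kb on a log axis against the log2 KO over WT scaled H3K27me3 reads, and the right panel the percent of each region inside H3K4me3 islands in WT against KO, with a line of equality. The red points lie below 0 on the left, among many grey ones, and above the line on the right.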

How the data were processed

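The 4 ChIP-seq libraries (H3K4me3 and H3K27me3, WT and KO) were analysed; the nuclease and input libraries were not used on their own. Per the labels' protocols, fixation was 10 minutes in 1% formaldehyde, nuclei were digested with micrococcal nuclease and sonicated, and reads were 50 bp long. Bowtie, SICER 1.1 and build mm9 are named in the submitters' processing notes. Calling used 200 bp windows, gaps of up to 200 bp for H3K4me3 or 600 bp for H3K27me3 and an FDR of 0.05, per the names of the deposited lists. How reads were filtered is not stated.

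Each island has deposited counts of ChIP and control reads, a deposited p-value with its adjusted value, and a deposited fold ratio. That ratio equals ChIP over control reads times 1 constant per list. Lists hold enriched places only, so a place without an island is not a count of 0. Depth is known only inside islands, which limits precision to read counting.

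Starts and ends were shifted by 1 to be 1-based. Islands overlapping by 1 bp or more were merged into regions; genome-wide ratios needed at least 20 reads from WT and from KO. Scaled ratios have exact conditional binomial intervals and folds normal intervals on the log scale. The ratio intervals were checked on simulated counts that varied by read counting alone. That check does not cover spread between libraries or the placing of island borders. Overlap counts differed from bedtools 2.31.1 by 0 islands. The islands named are, per cluster, all WT H3K27me3 islands, those with most reads per mark and genotype, the leading KO-only island, WT-only islands and the widest KO break, and other islands and regions given with values were chosen after these were seen. Members and lists were chosen with earlier results of these data known. Alternatives covered scaling, FDR, fold, window width, overlap, list length and the number of parts. Python 3.11.15, numpy 2.4.6, pandas 2.3.3, scipy 1.17.1 and matplotlib 3.10.9 were used.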

Additional observations from a re-analysis of the deposited data

How the results depend on the processing

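Of 134 values under alternative settings, 71 stayed within their interval or within 1.5 times the count or length, 59 moved and 4 changed sign; beyond settings that shorten a list, the cause was not tested. No paired analysis was possible because each genotype and mark has 1 library. H3K27me3 stayed lower in KO in each cluster under every setting tried. Its log2 ratios in HoxA, HoxB, HoxC and HoxD were −0.50, −0.31, −0.32 and −0.32 by fold over input, −0.88, −0.90, −0.85 and −0.64 with the median region ratio set to 1, and −0.56, −0.92, −0.67 and −0.35 with islands of fold 2 or more. Per kb they were −0.69, −0.50 and −0.42 in HoxA, HoxB and HoxC. With windows widened by 20 kb HoxC had −0.66; with islands whose midpoint lay in the window, a setting chosen after seeing the data, HoxC had −0.63 and HoxD −0.71.

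H3K4me3 changed sign per kb of called length, to −0.16, −0.070, −0.21 and −0.21. Its log2 ratio was 0.45, 0.65 and 0.21 by fold over input in HoxA, HoxB and HoxD, 1.09 and 0.33 in HoxA and HoxC scaled to all islands, 1.51, 0.79 and 1.35 in HoxA, HoxC and HoxD at an FDR of 1e-05, and 2.03, 1.16 and 1.29 there at a fold of 2 or more. HoxB gave no value at that fold, since WT had 0 islands left.

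Fewer H3K4me3 islands passed stricter rules. At an FDR of 1e-05 WT kept 4 in HoxA, 5 in HoxC and 4 in HoxD, and KO 10 in HoxB, 11 in HoxC and 9 in HoxD. At a fold of 2 or more the counts in WT and KO were 2 and 11 in HoxA, 0 and 8 in HoxB, 3 and 10 in HoxC and 3 and 6 in HoxD. With the KO list cut to the WT length, HoxC had 12 KO islands, and KO-only islands numbered 6 in HoxA, 6 in HoxC and 5 in HoxD. KO-only islands of HoxB were 5 at an FDR of 1e-05, and those of HoxD 5 with no WT island within 1 kb. Called H3K4me3 was longer in KO in 12 of 12 parts with 3 parts per cluster, 33 of 40 with 10 parts and 16 of 20 at an FDR of 1e-05. Length with both marks at a fold of 2 or more was 8.4 and 43 kb in HoxA, 0 and 15.6 kb in HoxB, 8.6 and 35 kb in HoxC and 5.8 and 21.6 kb in HoxD for WT and KO. At an FDR of 1e-05 it was 17.2 kb in WT HoxC and 9.2 kb in WT HoxD.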

Other observations

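The chromatin next to the windows was looked at after the values were seen, over 60 kb beyond each end. Coverage counts every island in the flank, and reads are those of whole islands that do not reach into the window. H3K27me3 went on past the group 13 end of HoxA and HoxB. It covered 66% of that flank in WT and 55.7% in KO at HoxA, with 1371 and 742 reads, and 69% and 54% at HoxB, with 3081 and 1292 reads. Beside HoxC it covered 54% in WT and 64.7% in KO past the group 13 end, and 72.3% and 43% past the other end. A wide H3K27me3 region of the HoxB flank, chr11:96023801-96073200, was inside H3K4me3 islands over 4.05% of its length in WT and 24.7% in KO. By that gain it stood at rank 7 of the 134 wide regions, and whether it holds Hoxb13 was not checked. The HoxB flank on the group 13 side also held 1 H3K4me3 island with 110 reads in WT and 5 with 518 reads in KO. At the same flank of HoxA the H3K4me3 islands numbered 3 in WT and 2 in KO, with 446 and 388 reads. Past the group 1 end of HoxD, H3K4me3 covered 13.7% in WT and 10.3% in KO, with 580 and 616 reads. In the other flanks H3K4me3 coverage was higher in KO. It went from 3.33% to 18% past the group 13 end of HoxB and from 1.67% to 4.67% past its group 1 end. Past the group 1 end of HoxA and the group 13 end of HoxD it went from 0 to 7.67% and 7.33%. Beside HoxC it went from 0 to 3.33% past the group 13 end and from 7.67% to 9.33% past the other end. Higher H3K4me3 coverage in KO was thus found in most flanks, but not in every one.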
